A study of Mus musculus with 12 samples.

Results

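Fatty acid synthesis and desaturation were followed through 10 genes: Srebf1, Acly, Me1, Acaca, Fasn, Elovl6, Scd1, Scd2, Fads1 and Fads2. The genes were found on the array by the RefSeq accession that the array design gives each probe, matched to its gene symbol. They were read by 17 of the 56605 probes that are not controls. For each gene the brightest of its probes over all arrays was used. All 10 genes passed the detection filter and stood among the 27555 genes tested (named genes and unnamed probes together). Each of the 10 probes was well above background on all 12 arrays.

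The tissue was the jejunum of male mice, 3 mice in each of 4 groups and 1 mouse per array. The groups were wild-type mice on vehicle, wild-type mice on IIAEK, IAP-KO (Akp3-/-) mice on vehicle and IAP-KO mice on IIAEK. IAP is intestinal alkaline phosphatase, a brush-border enzyme of the enterocyte, and IIAEK is a peptide of isoleucine, isoleucine, alanine, glutamate and lysine that is known as cholesterol-lowering. Mice were 7 weeks old at the start and were dosed by mouth daily for 14 days. The dose of IIAEK was 600 mg per kg body weight a day, and all 4 groups, treated or not, received the vehicle, a 5 g/L solution of carboxymethylcellulose. All mice were fasted for 8 h before the jejunum was taken. How the knockout line was made, and whether it was littermate-controlled, is not given in the sources used here.

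In de novo fatty acid synthesis, cytosolic citrate is cleaved to acetyl-CoA, which is carboxylated to malonyl-CoA and built into palmitate with reducing power from NADPH. Palmitate is then elongated and desaturated, and a separate pair of desaturases acts on dietary essential fatty acids to give the long polyunsaturated ones. The transcription factor SREBP-1, the product of Srebf1, is known to drive most of these genes in liver and fat when insulin is high, and fasting lowers them there. In the small intestine, enterocytes mainly take up and re-esterify dietary fat, and fat cells of the attached mesentery hold the same enzymes at high level.

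Levels are log2 signals minus the array's 75th percentile, so that 0 is that percentile, and changes are differences of group means on that scale. The 75th percentile lay between 575 and 815 intensity units, 59.99% to 67.1% of spots were well above background, and no spot was saturated. The number of arrays, 3 per group, limits the precision. The arrays lay on 2 slides, each its own scan. On slide 1 were replicate 1 of every group and replicate 2 of the knockout groups, and the rest were on slide 2. Akp3, the targeted gene, was not well above background on any of the 6 knockout arrays (-7.33 to -5.96 by its brightest probe) and was so on 5 of the 6 wild-type arrays, the exception being wild-type vehicle replicate 3 (-6.42). All 11 enterocyte markers and all 7 jejunum markers listed were well above background on every array. Markers of other tissues differed between arrays. Exocrine pancreas markers had a mean level of 7.83 in wild-type IIAEK replicate 3 and 3.70 in knockout vehicle replicate 3. The mean level of 9 adipocyte markers was -2.61 in knockout IIAEK replicate 2 and -2.17 in wild-type vehicle replicate 2, and reached 1.19 in knockout vehicle replicate 1. In bulk tissue, fewer cells of a type and less RNA per cell cannot be told apart.

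The sequences just upstream of 3 members are shown because Fasn, Acly and Fads2 stood among the genes whose levels went up and down together over the 12 arrays, described further on. They are RefSeq windows of the 250 bases before the annotated start, on GRCm38.p6, printed 5′ to 3′ on the minus strand, which is the strand of all 3 genes. Capitals mark the motifs searched, on both strands: the sterol regulatory element TCACNCCAC, the E-box CACGTG, the CCAAT box CCAAT and the GC box GGGCGG. The Fasn window is chr11:120824548-120824797, the Acly window chr11:100528001-100528250 and the Fads2 window chr19:10101504-10101753.
Fasn: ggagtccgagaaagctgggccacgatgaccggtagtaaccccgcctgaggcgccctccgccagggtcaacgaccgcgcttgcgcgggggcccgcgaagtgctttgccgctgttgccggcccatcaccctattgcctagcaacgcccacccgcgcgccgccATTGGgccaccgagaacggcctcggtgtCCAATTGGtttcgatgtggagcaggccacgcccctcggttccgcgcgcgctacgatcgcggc
Acly: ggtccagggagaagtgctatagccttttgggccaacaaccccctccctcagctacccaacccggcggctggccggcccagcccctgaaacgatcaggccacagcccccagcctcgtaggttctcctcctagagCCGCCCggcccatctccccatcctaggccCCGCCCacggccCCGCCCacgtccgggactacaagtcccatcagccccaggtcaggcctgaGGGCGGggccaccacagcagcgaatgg
Fads2: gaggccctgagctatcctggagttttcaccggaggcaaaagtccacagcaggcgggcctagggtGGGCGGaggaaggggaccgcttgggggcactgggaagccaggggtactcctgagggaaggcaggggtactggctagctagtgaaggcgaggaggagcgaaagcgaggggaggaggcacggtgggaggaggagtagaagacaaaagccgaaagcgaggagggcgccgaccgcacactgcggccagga

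The Fasn window held 3 CCAAT boxes, at 90, 62 and 59 bases before the start, of which the last 2 overlap in a palindrome of both strands. The Acly window held 4 GC boxes, at 117, 88, 76 and 27 bases before the start, and the Fads2 window held 1, at 186 bases. Of the 32851 promoter windows in the table, 33.8% held a CCAAT box and 32.7% a GC box. The letters of the sterol regulatory element (1.05% of all windows) and of the E-box (6.02%) were in none of the windows of the 7 members found in the table: Fasn, Acaca, Acly, Fads2, Elovl6, Srebf1 and Me1. The Acaca and Elovl6 windows held none of the 4 motifs. CCAAT and GC boxes were also found in windows of Srebf1 and Me1. Acaca was among the genes that went up and down together, and Srebf1 and Me1 were not. The motifs thus did not set those genes apart. A match of letters is a description, and its absence says only that these letters are not in this window. Along the genome, Fads2 lies between Fads3 and Fads1, and Scd2 and Scd1 lie on either side of Scd4.

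**Figure D1:**
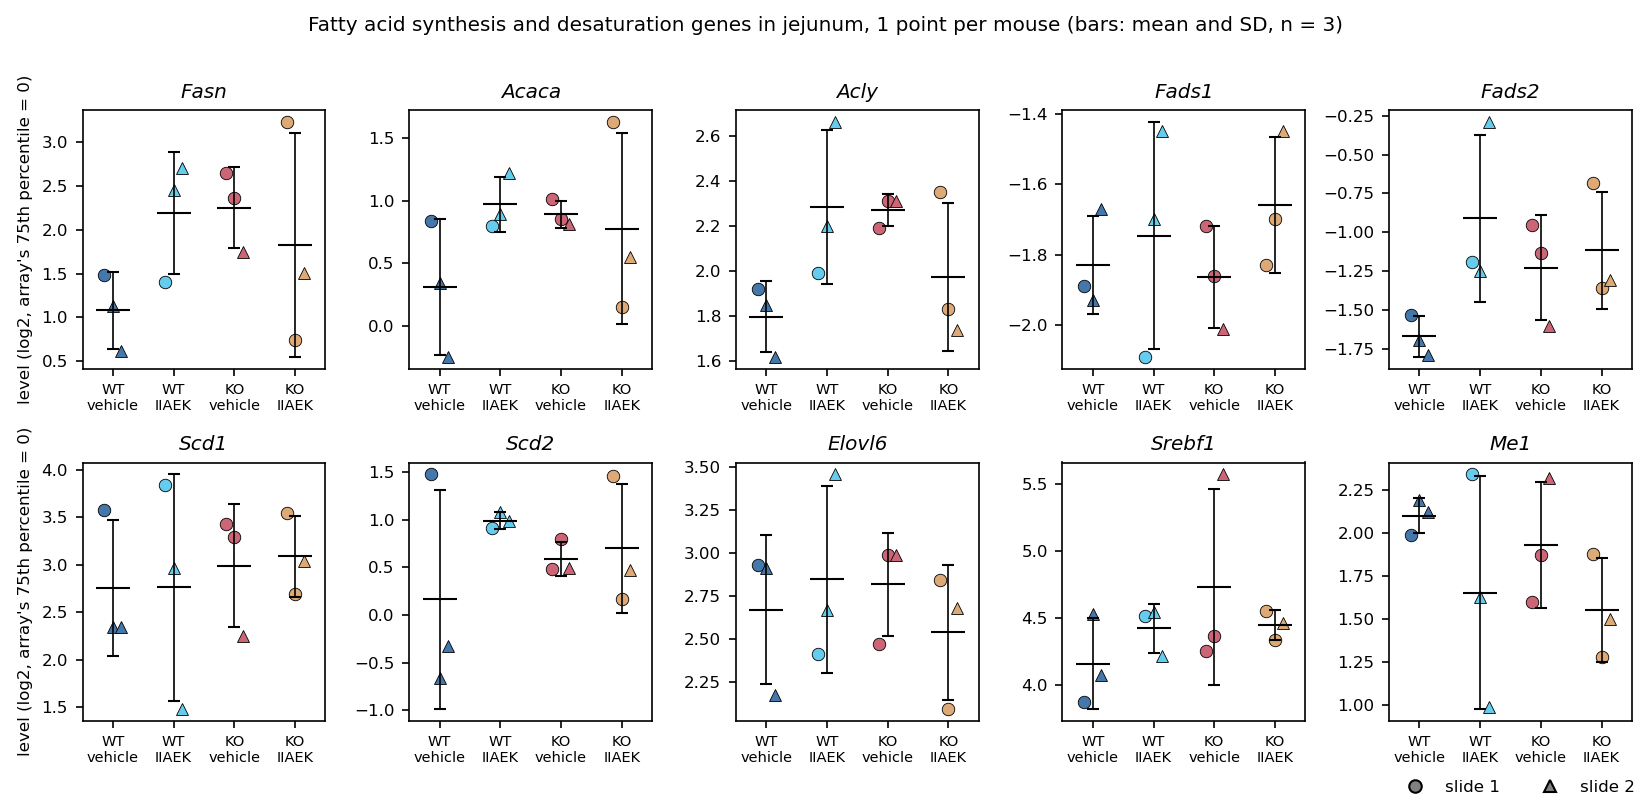
Level of each of the 10 genes (log2, minus the array's 75th percentile) in the 4 groups, 1 point per mouse, circles for slide 1 and triangles for slide 2, with the mean and SD of 3 mice; each panel has its own scale. Fasn, Acaca and Acly have their lowest array in wild-type vehicle (0.62, -0.25 and 1.62), and the knockout IIAEK mice span 0.74 to 3.23 for Fasn.

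Srebf1 encodes SREBP-1, the regulator. Its levels were 3.87, 4.53 and 4.07 in wild-type vehicle, 4.51, 4.54 and 4.21 in wild-type IIAEK, 4.25, 4.36 and 5.57 in knockout vehicle and 4.55, 4.33 and 4.46 in knockout IIAEK. Knockout vehicle replicate 3 stood above the other 11 arrays, and every pair of groups overlapped. The mean was 0.57 higher in knockout than in wild type on vehicle (SE 0.31, limma adjusted p = 0.475), and 0.15 higher without that array. The other changes of Srebf1 lay between -0.28 and 0.27 in the remaining pairwise comparisons.

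Acly encodes ATP citrate lyase, which cleaves citrate to acetyl-CoA in the cytosol. Its levels were 1.92, 1.85 and 1.62 in wild-type vehicle, 1.99, 2.20 and 2.66 in wild-type IIAEK, 2.19, 2.31 and 2.31 in knockout vehicle and 2.35, 1.83 and 1.74 in knockout IIAEK. Every array of wild-type IIAEK and of knockout vehicle lay above every array of wild-type vehicle, whereas the knockout IIAEK arrays spread over the range of the other groups. Its mean was 0.48 higher with IIAEK in wild type (SE 0.20, 95% interval 0.04 to 0.92, unadjusted p = 0.0343, limma adjusted p = 0.371). It was 0.47 higher in knockout than in wild type on vehicle (SE 0.20, 95% interval 0.03 to 0.91, unadjusted p = 0.0383, limma adjusted p = 0.435). These comparisons share the 3 wild-type vehicle arrays. In knockout the change with IIAEK was -0.30 (SE 0.20). The difference between the effects of IIAEK in knockout and in wild type was -0.78 (SE 0.28, 95% interval -1.40 to -0.16, unadjusted p = 0.0185), with a limma adjusted p of 0.31. Without wild-type IIAEK replicate 3, the array highest in pancreas markers, the change in wild type was 0.30.

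Me1 encodes cytosolic malic enzyme, a source of NADPH. Its levels were 1.99, 2.19 and 2.12 in wild-type vehicle, 2.34, 1.63 and 0.99 in wild-type IIAEK, 1.60, 1.87 and 2.32 in knockout vehicle and 1.88, 1.28 and 1.50 in knockout IIAEK. The wild-type vehicle arrays lay within 0.21 of each other and the wild-type IIAEK arrays spanned 1.35, from the highest to the lowest array of all 12. Me1 had the sole lower mean of the 10 genes with IIAEK in wild type, -0.45 (SE 0.30, limma adjusted p = 0.48), and the change in knockout was -0.38 (SE 0.30, adjusted p = 0.91). Leaving out wild-type IIAEK replicate 3, the lowest array, gave -0.11 in wild type, and leaving out replicate 1, the highest, gave -0.79. On slide 1 alone it was 0.36. Over both genotypes the change was -0.41 (SE 0.21, limma adjusted p = 0.962). A second Me1 probe, also well above background on all arrays, gave -0.22 in wild type and -0.48 in knockout (SE 0.32 each).

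Acaca encodes acetyl-CoA carboxylase alpha, which makes malonyl-CoA and commits carbon to fatty acids. Its levels were 0.84, 0.34 and -0.25 in wild-type vehicle, 0.80, 0.89 and 1.22 in wild-type IIAEK, 1.01, 0.85 and 0.81 in knockout vehicle and 1.63, 0.15 and 0.55 in knockout IIAEK. The wild-type vehicle and knockout IIAEK mice were spread widely and overlapped the other groups, and the wild-type IIAEK and knockout vehicle mice lay close together. The mean was 0.66 higher with IIAEK in wild type (SE 0.35, 95% interval -0.11 to 1.42, limma adjusted p = 0.412). It was 0.58 higher in knockout than in wild type on vehicle (SE 0.35, adjusted p = 0.512), and the change with IIAEK in knockout was -0.11. Without wild-type vehicle replicate 3, the lowest array, these values against wild-type vehicle were 0.38 and 0.30. A dimmer Acaca probe, well above background on all 12 arrays, gave 0.41 and 0.44 in the comparisons against wild-type vehicle (SE 0.29 each). A still dimmer one, well above background on 10 arrays, gave 0.15 and 0.17 (SE 0.34 each).

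Fasn encodes fatty acid synthase, which builds palmitate. Its levels were 1.49, 1.13 and 0.62 in wild-type vehicle (mean 1.08 ± 0.44, SD), 1.40, 2.46 and 2.71 in wild-type IIAEK (2.19 ± 0.70), 2.65, 2.36 and 1.75 in knockout vehicle (2.25 ± 0.46) and 3.23, 0.74 and 1.51 in knockout IIAEK (1.83 ± 1.28). All knockout vehicle arrays lay above all wild-type vehicle arrays, wild-type IIAEK replicate 1 lay within the vehicle range, and the knockout IIAEK mice included the highest array of the 12 and the second lowest. These were the largest mean differences of the 10 genes: 1.18 for knockout against wild type on vehicle (2.26-fold, SE 0.55, 95% interval -0.04 to 2.39, limma adjusted p = 0.445) and 1.11 for IIAEK in wild type (2.16-fold, SE 0.55, 95% interval -0.10 to 2.33, adjusted p = 0.397). Both miss the threshold, and they share the wild-type vehicle arrays. With IIAEK in knockout the change was -0.43 (SE 0.55, adjusted p = 0.926), and 0.12 without knockout IIAEK replicate 2. The difference between the effects of IIAEK in knockout and in wild type was -1.54 (SE 0.78, 95% interval -3.26 to 0.18, adjusted p = 0.363).

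Elovl6 encodes the elongase that extends palmitate to stearate. Its levels were 2.93, 2.91 and 2.17 in wild-type vehicle, 2.41, 2.67 and 3.46 in wild-type IIAEK, 2.47, 2.99 and 2.99 in knockout vehicle and 2.84, 2.09 and 2.68 in knockout IIAEK. All groups overlapped. Its pairwise changes ran from -0.31 to 0.18 (SE 0.31 each).

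Scd1 and Scd2 encode stearoyl-CoA desaturases, which make monounsaturated fatty acids. Scd1 levels were 3.58, 2.34 and 2.34 in wild-type vehicle, 3.84, 2.96 and 1.48 in wild-type IIAEK, 3.43, 3.29 and 2.25 in knockout vehicle and 3.54, 2.69 and 3.04 in knockout IIAEK. In each group the highest Scd1 array lay on slide 1. The change with IIAEK was 0.01 in wild type and 0.10 in knockout (SE 0.55 each), with 95% intervals of -1.21 to 1.22 and -1.12 to 1.31, wide enough to hold a change of either sign larger than a doubling.

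Scd2 levels were 1.48, -0.66 and -0.33 in wild-type vehicle, 0.91, 1.08 and 0.99 in wild-type IIAEK, 0.48, 0.80 and 0.49 in knockout vehicle and 1.46, 0.17 and 0.47 in knockout IIAEK. Wild-type vehicle held the lowest and the highest array of the 12, and wild-type IIAEK spanned 0.17. The mean was 0.83 higher with IIAEK in wild type (SE 0.47, limma adjusted p = 0.428). Leaving out the highest vehicle mouse, replicate 1, gave 1.49, and leaving out the lowest, replicate 2, gave 0.42. The sign differed between the slides: -0.57 on slide 1 alone, with 1 array against 1, and 1.53 on slide 2 alone.

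Fads1 and Fads2 encode the delta-5 and delta-6 desaturases of polyunsaturated fatty acid synthesis. Fads2 levels were -1.53, -1.69 and -1.79 in wild-type vehicle, -1.19, -1.25 and -0.29 in wild-type IIAEK, -0.95, -1.13 and -1.60 in knockout vehicle and -0.68, -1.36 and -1.31 in knockout IIAEK. Every wild-type IIAEK array lay above every wild-type vehicle array, with replicate 3 well above the others. The mean was 0.76 higher with IIAEK in wild type (SE 0.28, 95% interval 0.15 to 1.37, unadjusted p = 0.0185, limma adjusted p = 0.369), and 0.45 without that replicate. With IIAEK in knockout the change was 0.11 (SE 0.28, adjusted p = 0.958), and the difference between the genotypes in the effect of IIAEK was -0.65 (SE 0.39, adjusted p = 0.42).

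Fads1, the neighbour of Fads2, varied least of the 10 genes. Its levels were -1.89, -1.93 and -1.67 in wild-type vehicle, -2.09, -1.70 and -1.45 in wild-type IIAEK, -1.72, -1.86 and -2.01 in knockout vehicle and -1.83, -1.70 and -1.45 in knockout IIAEK. All groups overlapped within a range of 0.64. Its pairwise changes ran from -0.03 to 0.20 (SE 0.18 each), and the 95% intervals stayed within -0.42 and 0.59.

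**Figure D2:**
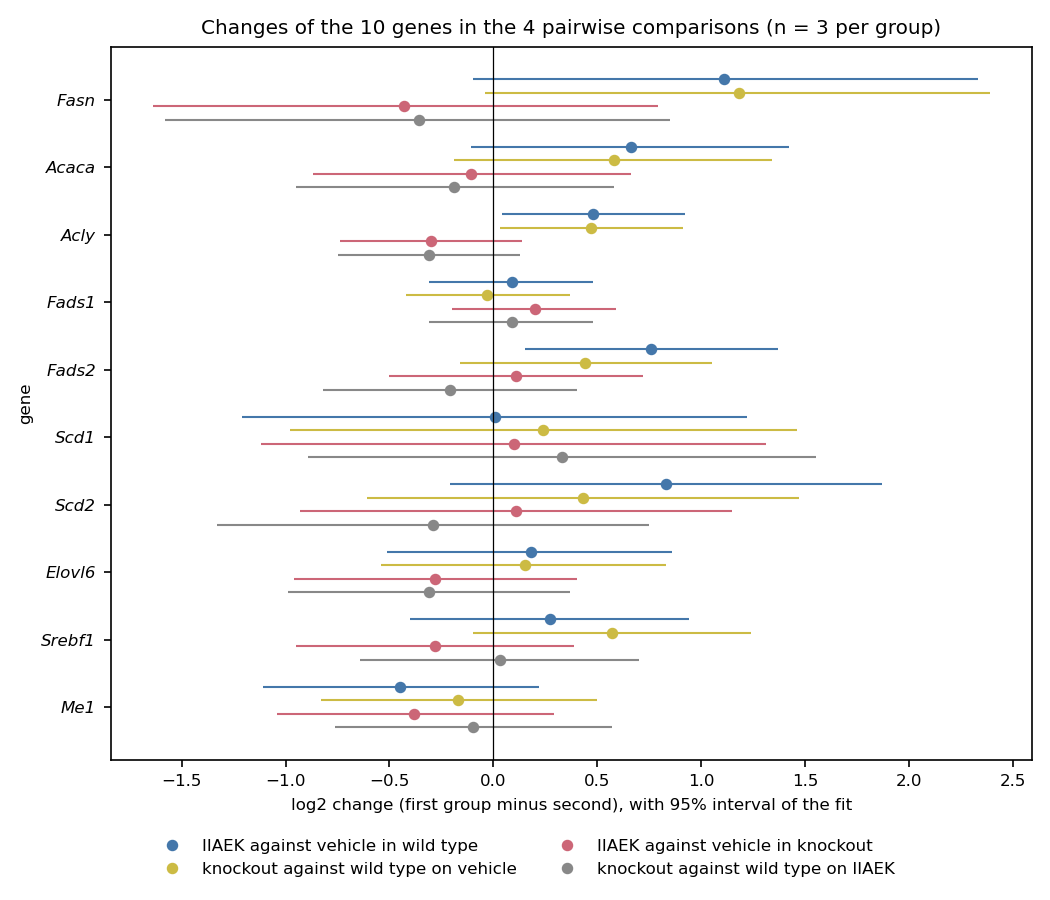
Log2 change of each gene in the 4 pairwise comparisons, with the 95% interval of the fit on 3 arrays per group; the vertical line marks 0. The intervals that leave out 0 are those of Acly with IIAEK in wild type and in knockout against wild type on vehicle, and that of Fads2 with IIAEK in wild type, before any adjustment for the number of genes tested.

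Over the 10 genes, 9 had a higher mean and 1 a lower mean with IIAEK in wild type, with a median change of 0.37, whereas over all genes 43% were higher and the median was -0.06. None of the 10 passed an adjusted p of 0.05 by limma, and 0% of all genes did. At an unadjusted p under 0.05, 2 of the 10 were higher (Acly and Fads2) and 0 lower, beside 5.86% of all genes higher and 7.18% lower. The arrays of the groups did not overlap for the same 2 genes, beside 10.6% of all genes higher without overlap. On slide 1 alone, with 1 array against 1, the median of the 10 genes was 0.01, with Fasn at -0.09, Acaca at -0.04, Acly at 0.07 and Fads2 at 0.34. On slide 2 alone these 4 were at 1.72, 1.01, 0.69 and 0.97.

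Smooth muscle markers moved with this comparison. All 8 had a higher mean with IIAEK in wild type, 5 without overlap (10.6% of all genes were higher without overlap), with a median of 0.90. Their summed level on the log2 scale was 5.28 to 5.98 in wild-type vehicle and 6.08 to 6.84 in wild-type IIAEK. Exocrine pancreas markers were higher on average in 10 of 10, and their summed level was 4.82 to 5.73 against 5.03 to 11.31. Adipocyte markers were higher on average in 6 of 9, with a median of 0.90 (Adipoq 2.28, SE 1.89) and a summed level of 4.99 to 5.34 against 4.98 to 5.50. B cell markers were higher on average in 6 of 8, with a median of 1.01 and a summed level of 1.09 to 3.29 against 1.39 to 3.71. Enterocyte markers were lower on average in 8 of 11, 4 of them without overlap (14.7% of all genes were lower without overlap), and 1 was higher without overlap. Their median was -0.24 and their summed level 11.32 to 11.36 against 10.93 to 11.23. The part of smooth muscle, B cells, fat cells and enterocytes in the changes of the 10 genes was not tested. Without the 2 arrays highest in pancreas markers, the change was 0.85 for Fasn, 0.53 for Acaca, 0.30 for Acly and 0.45 for Fads2.

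In knockout, 4 of the 10 genes had a higher and 6 a lower mean with IIAEK, with a median of -0.19 against 0.01 over all genes, of which 51.2% were higher. None passed the adjusted threshold by limma (0% of all genes), and 0 had an unadjusted p under 0.05, beside 4.42% of all genes. The changes lay between -0.43 for Fasn and 0.20 for Fads1. Adipocyte markers were lower on average in 9 of 9, with a median of -0.35, and their summed level was 5.14 to 5.99 on vehicle and 4.94 to 5.64 on IIAEK. Of 8 B cell markers 7 were lower on average with IIAEK, 6 of them without overlap (3.5% of all genes were lower without overlap), with a summed level of 3.17 to 3.65 on vehicle and 1.20 to 1.40 on IIAEK. Exocrine pancreas markers were lower on average in 9 of 10, with a median of -2.32 and a summed level of 4.77 to 7.76 on vehicle and 5.08 to 5.14 on IIAEK. The part of B cells and of fat cells was not tested. Without the 2 arrays highest in pancreas markers, the change of Fasn was -0.68. Without the 2 arrays lowest in adipocyte markers, of which 1 is in the knockout IIAEK group, the median of the 10 genes was 0.16.

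Between the genotypes on vehicle, 8 of the 10 genes had a higher and 2 a lower mean in knockout, with a median of 0.44 against -0.03 over all genes, of which 45.5% were higher. The median was 0.10 on slide 1 alone. Leaving out each array in turn gave medians from 0.24, without wild-type vehicle replicate 3, to 0.52. None passed the adjusted threshold by limma (0% of all genes). At an unadjusted p under 0.05, 1 was higher (Acly), beside 4.85% of all genes. Fasn and Acly were higher without overlap, beside 10.3% of all genes. Adipocyte markers were higher on average in knockout in 9 of 9, 4 of them without overlap, with a median of 1.38. Their summed level was 4.99 to 5.34 in wild type and 5.14 to 5.99 in knockout. Of 8 smooth muscle markers, 7 were higher on average in knockout, 5 of them without overlap, with a median of 0.56 and a summed level of 5.94 to 6.35 in knockout against 5.28 to 5.98 in wild type. The part of smooth muscle in these differences was not tested. B cell markers were higher on average in 6 of 8, with a median of 1.89 and a summed level of 3.17 to 3.65 in knockout against 1.09 to 3.29 in wild type, and their part was not tested. Without the 2 arrays lowest in adipocyte markers, Fasn was 1.20 higher and Acly 0.50. In this comparison that removes only wild-type vehicle replicate 2. The mean level of the adipocyte markers was then still -0.78 and -0.89 in wild type against -0.48 to 1.19 in knockout. The part of fat cells in these differences was not tested.

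On IIAEK, 3 of the 10 genes had a higher and 7 a lower mean in knockout than in wild type, with a median of -0.20 against 0.02 over all genes, of which 53.1% were higher. None passed the adjusted threshold by limma (0% of all genes), and 0 had an unadjusted p under 0.05, beside 7.66% of all genes. The median was 0.08 on slide 1 alone, -0.44 on slide 2 alone, and 0.06 without knockout IIAEK replicate 2. In this comparison exocrine pancreas markers were lower on average in knockout in 10 of 10 (median -5.02), B cell markers in 7 of 8 (-1.71), smooth muscle markers in 7 of 8 (-0.25) and adipocyte markers in 5 of 9 (-0.03). Summed levels in knockout and wild type on IIAEK were 5.08 to 5.14 against 5.03 to 11.31 for pancreas and 1.20 to 1.40 against 1.39 to 3.71 for B cells. They were 5.94 to 6.49 against 6.08 to 6.84 for smooth muscle and 4.94 to 5.64 against 4.98 to 5.50 for adipocytes.

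The interaction, the effect of IIAEK in knockout minus that in wild type, was below 0 for 7 genes and above 0 for 3, with a median of -0.60 against 0.06 over all genes, of which 54.6% were above 0. None passed the adjusted threshold by limma (0% of all genes), and 1, Acly, was lower at an unadjusted p under 0.05, beside 6.11% of all genes. The median was -0.28 on slide 1 alone and -1.01 on slide 2 alone. The interaction was also below 0 for 10 of 10 exocrine pancreas markers (median -4.82), 7 of 8 B cell markers (-3.60), 8 of 8 smooth muscle markers (-0.92) and 7 of 9 adipocyte markers (-1.20). The part of B cells, smooth muscle and fat cells in these values of the 10 genes was not tested. Without the 2 arrays highest in pancreas markers the interaction was -1.53 for Fasn and -0.57 for Acly, and without the 2 lowest in adipocyte markers -1.02 and -0.74. Averaged over both treatments, the genotypes differed by -0.13 to 0.41 and no member passed (0.00363% of all genes, 1 gene, did), with 0 at an unadjusted p under 0.05, beside 5.37% of all genes. Averaged over both genotypes, IIAEK gave changes of -0.41 to 0.47 and no member passed (0% of all genes). Fads2 was the sole one at an unadjusted p under 0.05 (0.44, SE 0.20, unadjusted p = 0.0477, limma adjusted p = 0.962), beside 1.46% of all genes higher.

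The 10 genes did not vary as a single block. Of their 45 pairs, 13 had a Pearson r above 0.5 and 2 below -0.5 over the 12 arrays, with a median r of 0.16. After Benjamini-Hochberg adjustment over the 45 pairs, 8 positive and 1 negative relation had a permutation p under 0.05. The share of such pairs among all genes was not computed, so these counts describe the 10 genes without a background. All arrays share 1 scaling, and 4 groups and 2 slides contribute to each r, so values within slides are given as well. Each slide holds arrays of all 4 groups, and the permutations shuffled arrays without regard to group. Every r and p of these correlations, also within slides, therefore mixes group differences with differences between mice of a group.

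Fasn and Acaca, consecutive steps of synthesis, were closest, with r = 0.92 (two-sided permutation p = 1e-05, the smallest that the permutations can give, adjusted p = 0.00045) and Spearman rho = 0.97 (adjusted p = 0.00045). The r was 0.86 without the 2 arrays farthest from the median of Fasn, 0.91 on slide 1 and 0.96 on slide 2 (exact p = 0.00278 on each, n = 6). Acly and Fasn followed with r = 0.84 (permutation p = 0.00086, adjusted p = 0.0126) and rho = 0.85 (p = 0.00098, adjusted p = 0.0147), 0.83 without the 2 farthest arrays, and 0.94 and 0.88 within the slides. Fads2 and Fasn had r = 0.79 (permutation p = 0.00167, adjusted p = 0.015) and rho = 0.83 (p = 0.00177, adjusted p = 0.0159), 0.73 without the 2 farthest, and 0.86 and 0.83 within the slides. The other pairs among Fasn, Acaca, Acly and Fads2 had r of 0.77 to 0.81. By rho, and by r without the 2 farthest arrays, the weakest of them was Fads2 with Acly. This pair had r = 0.78 (permutation p = 0.00235, adjusted p = 0.0151) but rho = 0.69 (p = 0.0158, adjusted p = 0.0889), and r = 0.51 without the 2 farthest arrays. Fads2 with Acaca had r = 0.77 on slide 1 (exact p = 0.075) and 0.78 on slide 2 (exact p = 0.0194). Fasn, Acaca and Acly, the genes of citrate cleavage, carboxylation and synthesis, were thus high and low in the same mice on both slides. This was not particular to them. Genes outside the list had a still higher r with each: Gga3 with Fasn (0.955), Plxna1 with Acaca (0.96) and Gaa with Acly (0.984).

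Fads1 and Me1 ran opposite to each other, with r = -0.84 (permutation p = 0.00069, adjusted p = 0.0126) and rho = -0.79 (p = 0.00347, adjusted p = 0.026). The r was -0.77 without the 2 arrays farthest from the median of Fads1, -0.95 on slide 1 (exact p = 0.00556) and -0.87 on slide 2 (exact p = 0.0167). Fads1 and Fads2, although neighbours on the chromosome, had r = 0.38 (permutation p = 0.219, adjusted p = 0.476) and rho = 0.19 (p = 0.558), and r was 0.07 without the 2 arrays farthest from the median of Fads1. Scd1 and Scd2 had r = 0.46 (permutation p = 0.135, adjusted p = 0.357) and rho = 0.47 (p = 0.128), with 0.68 on slide 1 and -0.01 on slide 2. Neither pair passed the adjusted threshold.

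No relation of Srebf1 with the genes it is known to regulate passed the test. Its r with the other 9 ran from -0.39 for Fads1 to 0.37 for Me1, and the permutation p adjusted over these 9 relations was 0.786 for every r and 0.8 to 0.921 for every rho. With Fasn it was r = 0.10 (permutation p = 0.786) and rho = 0.27 (p = 0.405), 0.23 without the 2 arrays farthest from the median of Srebf1, 0.30 on slide 1 and 0.12 on slide 2. The array measures the transcript of Srebf1, and the processing of its protein was not measured.

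**Figure D3:**
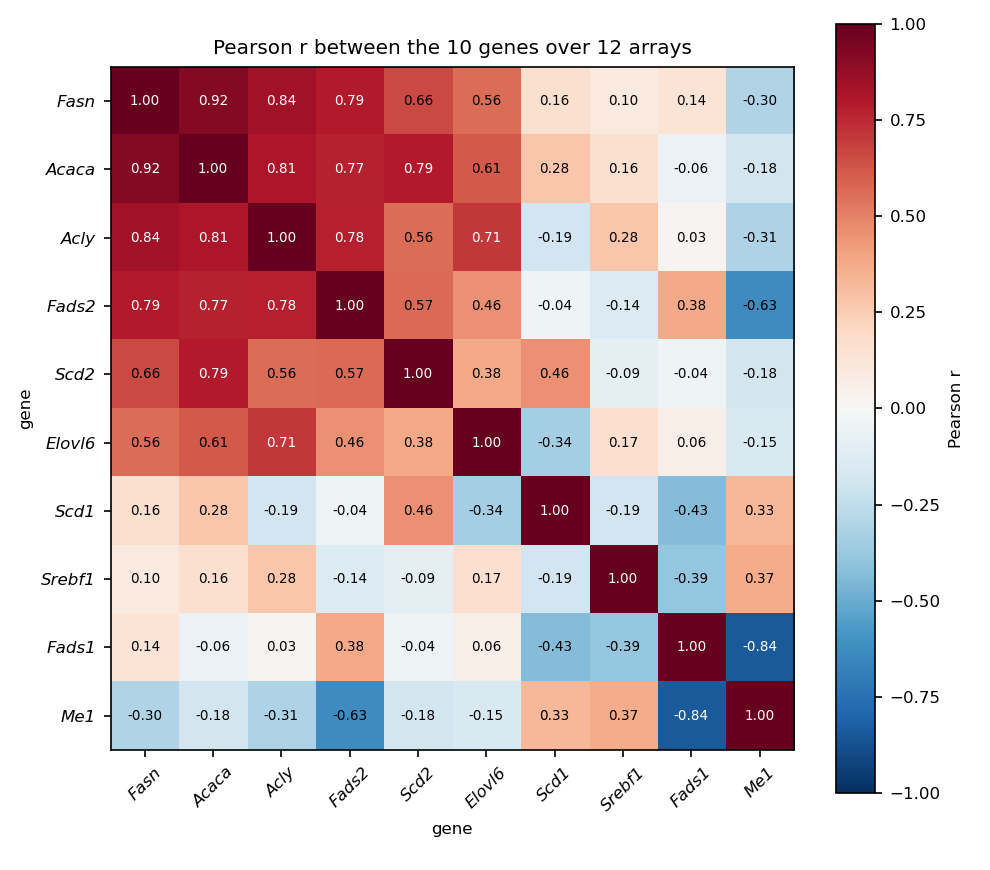
Pearson r between the levels of each pair of the 10 genes over the 12 arrays, red for positive and blue for negative, with the value printed in each cell. Fasn, Acaca, Acly and Fads2 form a corner with r from 0.77 to 0.92, Srebf1 has no r beyond -0.39 and 0.37, and Fads1 and Me1 are at -0.84.

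Because fat cells hold these enzymes at high level, each gene was also set against the mean level of the adipocyte markers on the same array. Of the 10 markers on the array 9 were tested, and 7 to 10 were well above background on an array. Adipoq, the fat cell hormone adiponectin, was not well above background in wild-type vehicle replicate 2 (-6.38) and knockout IIAEK replicate 2 (-7.40) and reached 1.27 in knockout vehicle replicate 1. Cidec, a lipid droplet gene on the same list, ran from 4.06 to 5.33 over the arrays. The mean level counts dim and bright markers alike, and the summed level orders the arrays otherwise. Wild-type vehicle replicate 2 was at -2.17 by mean but at 5.34 by summed level, the highest of its group. Wild-type IIAEK replicate 3 was at -0.34 by mean and 4.98 by summed level. Relations of the genes with the summed level were not tested. Smooth muscle, B cell and exocrine pancreas markers also differed between arrays, and the genes were not set against them. A relation with the adipocyte markers is therefore not shown to be particular to fat cells.

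Fasn followed the markers with r = 0.78 (permutation p = 0.00324, adjusted over 10 relations p = 0.0324) and rho = 0.85 (p = 0.001, adjusted p = 0.01). Without knockout IIAEK replicate 2 and wild-type vehicle replicate 2, the arrays farthest from the median of the markers, r was 0.71. It was 0.94 on slide 1 (exact p = 0.0139, n = 6) and 0.55 on slide 2 (exact p = 0.264, n = 6). For Acaca r was 0.62 (permutation p = 0.0301, adjusted p = 0.151) and rho 0.77 (p = 0.00486, adjusted p = 0.0243), with 0.47 without those arrays, 0.83 on slide 1 and 0.44 on slide 2. The other 8 genes had an adjusted p above 0.05 by both measures, with r from -0.16 for Me1 to 0.53 for Scd2. Acly had r = 0.45 (permutation p = 0.143) and rho = 0.49 (p = 0.111), 0.28 without those arrays, 0.88 on slide 1 and 0.22 on slide 2.

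**Figure D4:**
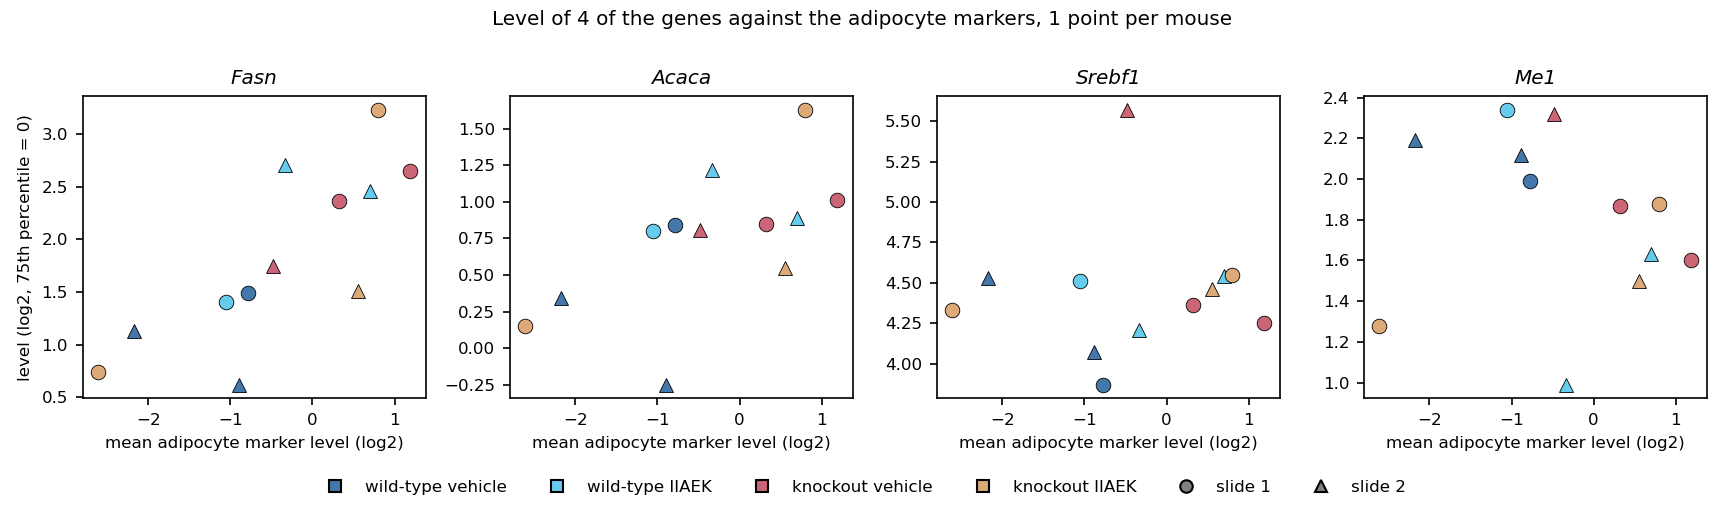
Level of Fasn, Acaca, Srebf1 and Me1 (vertical axes, log2, each on its own scale) against the mean level of 9 adipocyte markers (horizontal axes, log2) on the 12 arrays, coloured by group and shaped by slide. Fasn goes with the markers (r = 0.78), and Srebf1 does not (r = 0.04).

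Outside the 10 genes, the 3 named genes closest to Fasn over the 12 arrays, of 15794 compared, were Gga3 (r = 0.955), Arhgef18 (0.947) and Slc29a3 (0.938). Those closest to Acaca were Plxna1 (0.96), Vps33a (0.959) and Cdc42bpb (0.956), those closest to Acly Gaa (0.984), Trim28 (0.981) and Sf3a2 (0.976), and those closest to Fads2 Inava (0.981), Birc5 (0.98) and Clca3b (0.978). For Srebf1 they were Pisd (0.948), Dtnb (0.939) and Zfp326 (0.905), whose rank correlations were lower, at 0.713, 0.497 and 0.629. These are the highest of many values and carry no test. Among the remaining genes, the highest r was 0.895 for Fads1 (B9d1), 0.904 for Scd1 (Trub2), 0.923 for Elovl6 (Ep400) and 0.912 for Me1 (Fam169b).

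A further list of 46 genes of fatty acid synthesis, elongation, activation and sterol-linked control was on the array in full, and 41 were tested. None passed the adjusted threshold by limma in any of the 7 comparisons. With IIAEK in wild type, 22 were higher and 19 lower on average, with a median of 0.04, and at an unadjusted p under 0.05 there were 4 higher and 3 lower, beside 5.86% and 7.18% of all genes. Over all genes 43% were higher, with a median of -0.06. Acsl5, the acyl-CoA synthetase abundant in enterocytes, was at 5.99 to 6.18 in wild-type vehicle, 5.24 to 5.63 in wild-type IIAEK, 5.34 to 5.68 in knockout vehicle and 5.61 to 6.23 in knockout IIAEK. Its levels in wild-type vehicle thus lay above both wild-type IIAEK and knockout vehicle, the reverse of Acly. Its change was -0.62 with IIAEK in wild type (SE 0.18, unadjusted p = 0.00533, limma adjusted p = 0.369) and -0.55 in knockout against wild type on vehicle (SE 0.18, adjusted p = 0.423). Its interaction was 0.95 (SE 0.26, unadjusted p = 0.00322, adjusted p = 0.31).

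Tecr, the reductase of the last step of the elongation cycle, went the other way: 0.37 to 0.59 in wild-type vehicle, 0.94 to 1.58 in wild-type IIAEK, 0.95 to 1.15 in knockout vehicle and 0.46 to 1.36 in knockout IIAEK. Its change with IIAEK in wild type was 0.73 (SE 0.23, limma adjusted p = 0.369) and its interaction -0.98 (SE 0.32, adjusted p = 0.31). Mbtps1, the site-1 protease that releases SREBPs, had a change of 0.47 with IIAEK in wild type, and Idh1, cytosolic NADP-dependent isocitrate dehydrogenase, one of -0.76 (limma adjusted p = 0.369 and 0.374).

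On vehicle, 23 of the 41 were higher and 18 lower in knockout, with a median of 0.02, beside 45.5% higher and a median of -0.03 over all genes. Besides Acsl5, the smallest p-values were those of the acyl-CoA synthetases Acsl3 (-0.85) and Acsl1 (0.60) and of Gpam, the mitochondrial glycerol-3-phosphate acyltransferase (0.49), each with a limma adjusted p of 0.423. With IIAEK in knockout, 27 were higher and 14 lower, with a median of 0.08 and 0 at an unadjusted p under 0.05. Over all genes, 51.2% were higher in that comparison and 4.42% had such a p. In knockout against wild type on IIAEK, 19 of the 41 were higher and 22 lower, with a median of -0.03, beside 53.1% of all genes higher. There Insig2, which holds the SREBP complex in the endoplasmic reticulum, had a change of 0.83 (SE 0.30, limma adjusted p = 0.647). The interaction was above 0 for 20 and below 0 for 21, beside 54.6% of all genes above 0.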

How the data were processed

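Total RNA from 12 jejuna, 1 mouse per array, was labelled with Cy3 per the labels and hybridised to Agilent arrays read with Feature Extraction 10.7.3.1 per the file headers. The deposited intensity is the processed signal, background-subtracted within the array and not scaled between arrays. The authors' value table is in log2 units. Its scaling and centring are not stated; its columns follow the 75th-percentile-scaled, probe-centred log2 signal with r of at least 0.9993, and their medians run from -0.0798 to 0.151.

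Here the array's 75th percentile was subtracted from the log2 processed signal. Outlier spots (0 to 4 per array) were left out, and the brightest probe stood for a symbol. A gene entered the test if a whole group of 3 arrays had it well above background. Symbols came from RefSeq accessions, which named 32994 probes. Fits used limma 3.58.1 in R 4.3.3, with 4 group means together (8 residual and 3.37 prior degrees of freedom), two-sided, Benjamini-Hochberg over 27555 genes, threshold 0.05. Scripts were tested on simulated data. Correlations used 100000 permutations, or exact enumeration within slides. The named genes are the 10 members, up to 4 of the further list per comparison by smallest p, and the 3 most correlated genes per member, of which some are not reported here. Members and lists were chosen with earlier results of these data known, and the correlations of member pairs were added after seeing the data. Titles and protocol give 14 days of IIAEK, a source field weeks. Alternatives were background correction, scaling, filter, probe choice, variance model, slide, replicate block, the authors' table and left-out arrays.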

Additional observations from a re-analysis of the deposited data

How the results depend on the processing

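None of the 10 genes passed the adjusted threshold by limma in any of the 7 comparisons under any alternative run. On slide 1 alone, as values with no test, the median of the 10 genes was 0.01 for IIAEK in wild type, 0.10 for knockout against wild type on vehicle, 0.08 on IIAEK and -0.28 for the interaction, which was -1.01 on slide 2 alone. For IIAEK in knockout, leaving out each array in turn gave medians of -0.38 to 0.16, and 0.16 without the 2 arrays lowest in adipocyte markers, an alternative chosen after seeing the data, as was leaving out those highest in pancreas markers. With the replicate number as a block, 0 members were called, and the median was 0.37 for IIAEK in wild type and 0.44 for knockout against wild type on vehicle. The deviations of same-numbered arrays from their group means had r of -0.252 to 0.346. Between knockout vehicle and knockout IIAEK they were 0.207, 0.09 and 0.346. Whether the numbers pair the mice cannot be told from these values. Normexp was run on median spot signals. With 3 arrays per group, changes such as that of Fasn have intervals wider than 2 log2 units.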
